A study of Arabidopsis thaliana with 24 samples.

Results

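The response of Arabidopsis root meristems at 4 h of dexamethasone was taken from the 3 arrays of 4 h and the 3 arrays of 0 h, which are 6 of the 24 arrays of the time course, chosen by their titles. All 6 came from Col-0 plants made by crossing lines with the constructs pRPS5A::TMO5:GR and pRPS5A::LHW:GR, so the 0 h arrays carry both constructs too. Seedlings 4 days old were moved to medium with dexamethasone, and root meristems were harvested 0 h or 4 h later. The other arrays were taken at 0.5, 1, 2, 3, 5 and 6 h, with 3 arrays each. Seedlings transferred to medium lacking the steroid were not analysed here, and effects of the move, of the steroid and of time itself cannot be told apart in the comparison of 4 h with 0 h. Whether the repeats were grown separately is not in the labels, and p-values measure only the spread between these arrays.

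TMO5 and LHW are basic helix-loop-helix (bHLH) transcription factors that bind DNA as a pair and promote the divisions by which vascular cell files of the root multiply. A factor fused to the ligand-binding domain of the glucocorticoid receptor (GR) stays in the cytosol until dexamethasone lets it enter the nucleus. The RPS5A promoter is active in dividing cells throughout the meristem, well beyond the vascular tissue where the native partners act together. In this module cytokinin synthesis and response are known targets, and DOF2.1, a zinc-finger transcription factor of the DOF family, gives the series its title.

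Values are log2 expression per gene, and a difference of 1 is a doubling. A gene was called when the limma adjusted p (Benjamini-Hochberg over 16554 genes, 1 model of 8 time means on 24 arrays) was under 0.05, and "rose" and "fell" are used of called genes only. Array medians over probe sets lay between 3.86 and 4.01 over the series, and precision is limited by there being 3 arrays a time. Array 3 stood apart from its repeats at 0 h and at other early times. Along the leading principal component over genes, which held 18.8% of the variance, the 0 h arrays lay at -27.2, -21.5 and -5.16 and the 4 h arrays at 9.63, 10.1 and 11.4. Array 3 had the highest value of its time at 7 of the 8 times, for example -5.49 against -15.9 and -15.9 at 0.5 h, -4.01 against -16.9 and -13.9 at 1 h, and 5.87 against -9.66 and -4.78 at 2 h. Results that rest on array 3 of 0 h are therefore given with and without it. The spread around the time means was also wider at 0 h, with residual SDs of 0.197 to 0.215 per array, than at 4 h, with 0.168 to 0.174.

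At 4 h 294 genes had risen and 170 had fallen, 464 in all. These calls were 2.8% of the genes tested, 1.78% higher and 1.03% lower. The median change was 0.70 among the genes that rose and -0.69 among those that fell, against -0.02 over all genes. A change of at least 1 was reached by 43 genes that rose and 35 that fell. The 6 arrays did not overlap between the times for 457 of the 464 called genes, and for 3160 genes (19.1%) of all those tested, of which 9.73% were higher and 9.36% lower at 4 h. Without array 3 of 0 h 611 genes rose and 385 fell, and 420 of the 464 kept their call. Leaving out any other of the 6 arrays gave 190 to 285 calls, and 114 genes (64 higher and 50 lower) were called in all 6 of these fits as well as in the fit of all arrays. Centring every array at the median of its genes, which moved the median change of all genes from -0.02 to -0.07, gave 226 rises and 240 falls. Of the 118 called genes chosen for naming, 13 lost their call by this centring (limma adjusted p from 0.0505 to 0.106), among them AT5G59680, XTH33, PSY1R, LCR69, SWEET17, RCA, ATG8H, ATG8F and UBC22. With arrays weighted by their quality 17 lost it (limma adjusted p from 0.05 to 0.106), among them ARR15, XTH33, LCR69, RCA, AT1G33440, ATG8F, UBC22, HAT2, HAT3.1, CLE14, MGL, PUB22, APL3 and AT1G36622. Without array 3 of 0, 0.5, 1 and 2 h, 10 lost it (limma adjusted p from 0.0514 to 0.142), among them LCR69, RCA, MGL, PUB22, APL3 and AT1G36622.

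**Figure D1:**
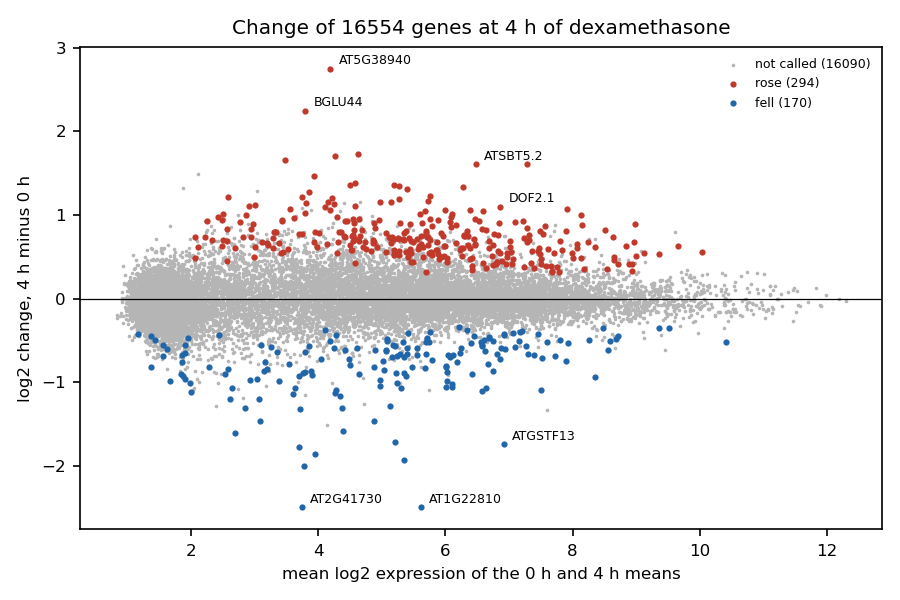
Log2 change at 4 h against 0 h (vertical axis, log2 units) plotted against the mean of the 0 h and 4 h levels (horizontal axis, log2 expression), with 1 point per gene. The 294 genes that rose are red, the 170 that fell are blue and the others are grey, and AT5G38940 (2.75) and AT1G22810 (-2.49) lie at the extremes.

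Called genes lay mostly in the upper part of the range of expression. Their 0 h levels had medians of 5.28 for the genes that rose and 5.64 for those that fell, against 3.73 over all genes. With genes split by mean level into 4 groups of like size, calls were 0.217% of the dimmest group, 2.03% and 4.59% of the middle groups and 4.37% of the brightest. Only 1804 of the 16554 genes had a symbol, and 72 of those were called (3.99%), 48 higher (2.66%) and 24 lower (1.33%). The other called genes are known here by locus, and a family is given for a locus only where the descriptions of the series or the annotation's synonyms name it. Called genes with a symbol that belong to no list were also named, a choice made after their values were seen. Gene lists hold only genes whose locus, symbol or synonym matched the list. Each count below therefore covers part of a family, and called members may lie outside it. The lists were also chosen with earlier results of these data known. A list's share above that of all genes is thus no test of its family. Counts of called members are to be read beside the share over all genes, 2.8%. That share belongs to the fit of all arrays. Without array 3 of 0 h 996 of the 16554 genes were called (611 higher and 385 lower). List counts given without that array are to be read beside this larger number, not beside 2.8%.

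The 20 largest rises and the 20 largest falls were taken from called genes with no overlap of arrays. Lack of overlap among them is therefore a condition of the choice. The largest rise was that of AT5G38940, a germin-like gene. Its log2 values were 1.89, 3.38 and 3.16 in the 0 h arrays and 5.36, 5.90 and 5.41 in the 4 h arrays. The 0 h arrays spread widely and all lay well below the 4 h arrays. The change was 2.75 ± 0.43 (SE), a 6.71-fold rise, with a limma adjusted p of 9.42e-04. Germin-like proteins are secreted proteins of the cell wall, several of which act as oxalate oxidases or superoxide dismutases.

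BGLU44, a beta-glucosidase that releases glucose from glycosides, had values of 2.79, 2.06 and 3.16 at 0 h that became 4.75, 5.15 and 4.86 by 4 h. The groups were separated by more than 1.5 log2 units, and the change of 2.25 ± 0.28 corresponded to 4.75-fold (limma adjusted p = 1.71e-04). It was the only called gene among 24 beta-glucosidases measured (4.17%, against 2.8% of all genes), whose median change was -0.07. Without array 3 of 0 h 2 of them rose and 1 fell. ATSBT5.2, a subtilisin-like serine protease, had 5.43, 5.72 and 5.87 at 0 h against 7.03, 7.37 and 7.43 at 4 h. All 4 h arrays were higher by over 1 log2 unit than the highest 0 h array, and the gene rose by 1.61 ± 0.15 (limma adjusted p = 5.82e-06). Among 10 subtilases no other was called, so that 10% of them were called, and the median change was -0.12.

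AT3G18450, a gene of the PLAC8 family, rose from 6.38, 6.23 and 6.83 to 7.99, 8.16 and 8.12, by 1.61 ± 0.20 (limma adjusted p = 1.52e-04). The tight 4 h arrays stood clear of all 0 h arrays. The HXXXD acyltransferase genes AT5G39080 and AT3G50300 rose by 1.47 ± 0.19 and 1.38 ± 0.20 (limma adjusted p = 1.85e-04 and 4.66e-04). Enzymes of this family transfer acyl groups in the making of phenolic esters and related compounds. AT5G39080 had a mean of 3.20 at 0 h and 4.67 at 4 h, and AT3G50300 went from 3.89 to 5.27. BAT1, a further acyltransferase, known to act on brassinosteroids, rose by 0.78 ± 0.17 (limma adjusted p = 0.0132), from 5.30 to 6.08. The call of BAT1 ended without array 2 or 3 of 4 h (with adjusted p of 0.0671 and 0.0767) or array 1 of 0 h (adjusted p = 0.0617).

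**Figure D2:**
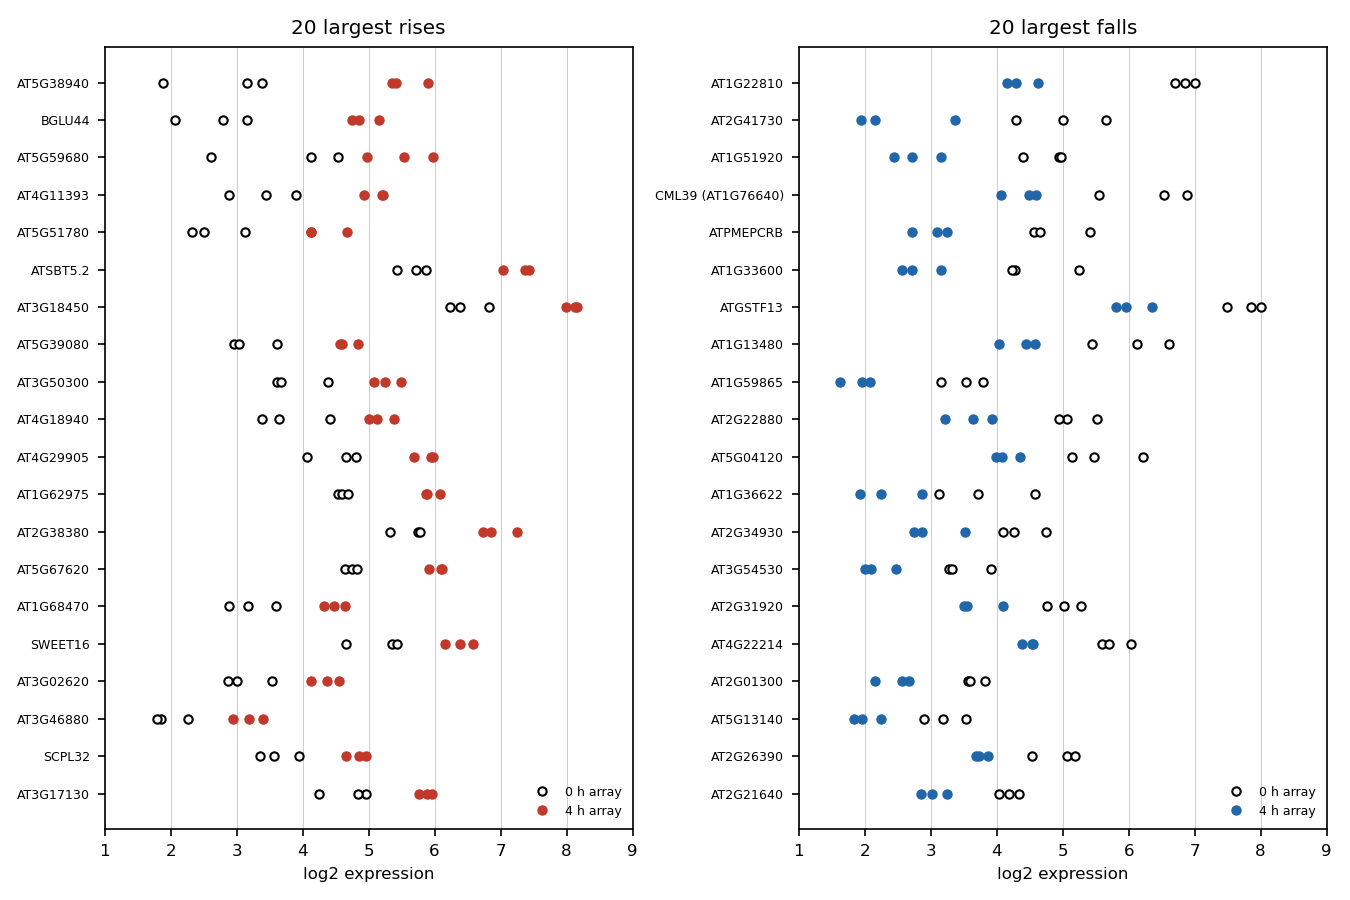
Log2 expression in each of the 6 arrays (horizontal axis) for the 20 largest rises and the 20 largest falls among the called genes with no overlap of the 0 h and 4 h arrays. Open circles are 0 h arrays and filled circles 4 h arrays, and the distance between the groups shrinks from AT5G38940 (2.75) to AT3G17130 (1.19) on the left and from AT1G22810 (-2.49) to AT2G21640 (-1.14) on the right.

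Several further loci among the 20 largest rises matched no gene list by name. Their families were not looked up further, and no function is given for them here. AT1G62975 rose by 1.34 ± 0.15, with 0 h arrays at 4.53, 4.60 and 4.68 and 4 h arrays at 5.89, 6.08 and 5.87 (limma adjusted p = 4.10e-05). AT5G67620 rose by 1.31 ± 0.13, from 4.64, 4.74 and 4.82 to 6.10, 5.92 and 6.11 (limma adjusted p = 7.02e-06). Repeats of both genes differed by little, and they were among the most precisely measured changes of the list. AT4G29905, AT1G68470, AT3G46880 and AT3G02620 rose by 1.36, 1.27, 1.21 and 1.21 (limma adjusted p from 2.51e-04 to 0.00608), and each kept its call when any of the 6 arrays was left out. AT4G18940 and AT3G17130 rose by 1.36 and 1.19 (limma adjusted p = 0.00673 and 0.0106), and both calls ended without array 1 of 0 h (adjusted p = 0.0508 and 0.0734).

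Among transcription factors the listed bHLH genes, of the family of the introduced pair, were called in 1 direction. Of 30 matched by name, 5 rose and none fell, 16.7% called against 2.8% of all genes. The list's median change was 0.16 against -0.02. Members of the family under other names are not in these counts. The largest was AT5G51780, whose values were 2.32, 3.13 and 2.50 at 0 h and 4.13, 4.67 and 4.12 at 4 h. Every 4 h array lay about 1 log2 unit or more above the nearest 0 h array, and the change was 1.66 ± 0.25 (limma adjusted p = 8.11e-04). Its neighbour on the chromosome, AT5G51790, had 3.08, 3.42 and 3.20 at 0 h and 4.52, 4.22 and 4.38 at 4 h, a rise of 1.14 ± 0.17 (limma adjusted p = 6.97e-04). Both kept their calls when any of the 6 arrays was left out, as did SACL2 and AT1G72210.

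The other listed bHLH genes that rose were AT1G72210 (bHLH096), NAI1 and SACL2. AT1G72210 went from a mean of 3.62 to 4.41, by 0.79 ± 0.16 (limma adjusted p = 0.00964). NAI1, which controls the formation of endoplasmic reticulum bodies, went from 4.50 to 5.20, by 0.70 ± 0.14 (limma adjusted p = 0.00871), and this call ended without array 1 of 0 h (adjusted p = 0.0621). SACL2 (AT5G50010), a relative of SAC51 whose family counters the TMO5-LHW pair, had 4.98, 5.02 and 5.27 at 0 h but 5.70, 5.55 and 5.69 by 4 h. The groups were apart, and it rose by 0.56 ± 0.11 (limma adjusted p = 0.0071). Its relative SACL1 (AT5G09460) was 0.37 ± 0.10 higher at 4 h, from 5.32 to 5.70, and was not called (limma adjusted p = 0.051). It was called in both fits that left out array 2 or 3 of 0 h, with an adjusted p of 0.0344 to 0.713 over all alternatives. SACL2 and SACL1 are named here outside the rule that chose the other genes, after their values were seen.

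LHW itself had values of 7.27, 7.23 and 7.47 at 0 h and 7.18, 7.41 and 7.18 at 4 h, and its groups overlapped. The difference was -0.07 ± 0.11 (limma adjusted p = 0.808), and it was 0.00 without array 3 of 0 h. Whether the probes tell the native transcript from that of the construct was not tested. No probe set is named for TMO5 alone, and it was not analysed here.

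DOF2.1 (AT2G28510) rose from 6.01, 6.48 and 6.47 to 7.40, 7.38 and 7.45, by 1.10 ± 0.15, which is 2.14-fold (limma adjusted p = 3.46e-04). The 4 h arrays agreed to within 0.1 log2 units and stood above all 0 h arrays. Of the 3 listed DOF genes it was the only one called. The others, AT5G02460 and AT2G28810, had changes of -0.09 and 0.04.

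Each of 2 further factor families moved in both directions. Of 7 listed WRKY genes, 1 rose and 1 fell, 28.6% called against 2.8% of all genes. WRKY42, known for its part in phosphate balance and root hair growth, had 5.42, 5.51 and 5.87 at 0 h and 6.63, 6.63 and 6.57 at 4 h, a rise of 1.01 ± 0.15 (limma adjusted p = 5.99e-04). WRKY22, a factor of immune signalling, had 6.03, 5.68 and 5.76 at 0 h and 4.58, 4.64 and 5.07 at 4 h, a fall of 1.06 (log2 change -1.06 ± 0.23, limma adjusted p = 0.0132). No 4 h array of WRKY22 reached a 0 h array, and the call ended without array 1 or 2 of 4 h (with adjusted p of 0.0614 and 0.0615) or array 1 of 0 h (adjusted p = 0.0739).

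Of 14 listed AP2/ERF genes, 1 rose and 1 fell, 14.3% called against 2.8% of all genes. AT1G22810 showed the largest fall of all genes. Its values were 6.70, 7.00 and 6.86 at 0 h and 4.29, 4.63 and 4.16 at 4 h, a change of -2.49 ± 0.21 or 5.63-fold lower (limma adjusted p = 2.98e-06). The repeats agreed closely at both times and the groups were more than 2 log2 units apart. TINY (tny), which promotes stress responses at the expense of growth, rose from a mean of 5.93 to 6.74, by 0.81 ± 0.18 (limma adjusted p = 0.018). That call ended without array 1 of 0 h (adjusted p = 0.115) and without each single 4 h array (adjusted p from 0.0503 to 0.0726).

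Other factors with a symbol went both ways. MYBC1, a MYB-like repressor of freezing tolerance, rose by 0.78 ± 0.11, from 4.44, 4.73 and 4.82 to 5.48, 5.53 and 5.33 (limma adjusted p = 3.09e-04). TRY, an R3 MYB protein that moves between epidermal cells and takes part in the choice between hair and non-hair cells of the root, had 4.17, 4.12 and 4.19 at 0 h but 3.30, 2.89 and 3.09 by 4 h. The 0 h arrays were nearly equal and all 4 h arrays lay more than 0.8 log2 units below them. TRY fell by 1.07 (log2 change -1.07 ± 0.15, limma adjusted p = 4.66e-04), and no single array was needed for the call. EEL, a bZIP factor first described in embryos, rose by 0.59 ± 0.12 (limma adjusted p = 0.0109), a call that ended without array 2 of 4 h (adjusted p = 0.0654). The homeodomain genes HAT2, which responds to auxin, and HAT3.1 were lower by 0.43 and 0.34 in log2 (changes -0.43 and -0.34, limma adjusted p = 0.0429 and 0.0412). The call of HAT2 ended without any 4 h array or without array 2 of 0 h (adjusted p from 0.102 to 0.202), and that of HAT3.1 without any 4 h array or without array 1 or 2 of 0 h (adjusted p from 0.0687 to 0.193).

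Called genes of hormone response included GH3.17 and ARR15. GH3.17, an enzyme that ties the auxin indole-3-acetic acid to amino acids, rose from 6.22, 5.97 and 6.27 to 6.92, 7.18 and 6.86. No arrays overlapped, and the change was 0.83 ± 0.11 (limma adjusted p = 1.85e-04). It was the only one called of 21 genes of auxin response and synthesis, whose median change was 0.15, so that 4.76% of them were called against 2.8% of all genes. ARR15, a type-A response regulator that cytokinin induces and that dampens the cytokinin signal, had 2.15, 1.99 and 1.84 at 0 h but 3.08, 2.55 and 3.36 by 4 h. It rose by 1.01 ± 0.25 (limma adjusted p = 0.0326). This call ended without array 1 or 3 of 4 h (with adjusted p of 0.101 and 0.16), without each single 0 h array (adjusted p from 0.0604 to 0.0911) and with array weights (adjusted p = 0.0582). The other type-A member listed, RR16, was 0.35 ± 0.30 higher, with overlapping arrays, and was not called (limma adjusted p = 0.61). None of 4 type-B response regulators was called, and without array 3 of 0 h 1 of them fell. AZG1, a transporter of purines, rose by 0.59 ± 0.13 (limma adjusted p = 0.0162), and PUP18, a purine permease, fell by 0.75, from 3.63, 3.47 and 3.53 to 2.83, 2.89 and 2.65 (limma adjusted p = 0.00608). The call of AZG1 ended without array 1 or 2 of 4 h (with adjusted p of 0.0576 and 0.0883) or array 1 of 0 h (adjusted p = 0.11).

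Cell wall enzymes were called in both directions, and differences between families were not tested. Of 10 xyloglucan endotransglucosylases, which cut and rejoin xyloglucan chains, XTH33 and XTH32 rose by 0.95 ± 0.25 and 0.89 ± 0.19 (limma adjusted p = 0.0434 and 0.0135). Of 24 expansins, which loosen the wall, EXPA8 rose from 5.24, 5.03 and 5.57 to 6.20, 6.24 and 6.24, by 0.95 ± 0.19 (limma adjusted p = 0.00871), and without array 3 of 0 h 3 of them rose. Calls were 20% of the xyloglucan endotransglucosylases and 4.17% of the expansins, against 2.8% of all genes. The median changes of these lists were -0.02 and 0.07, close to that of all genes. The call of XTH33 ended without any 4 h array or without array 1 or 2 of 0 h (adjusted p from 0.0674 to 0.191), after median centring (adjusted p = 0.0538) and with array weights (adjusted p = 0.0595). That of XTH32 ended without array 3 of 4 h (adjusted p = 0.0863) or array 1 of 0 h (adjusted p = 0.0725), and that of EXPA8 without array 2 of 0 h (adjusted p = 0.0528).

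Both called members of 19 GH9 endoglucanases, which cut glucan chains of the wall, were lower at 4 h. They were 10.5% of the list, against 2.8% of all genes called. GH9C3 had 8.05, 8.09 and 8.05 at 0 h but 7.40, 7.40 and 7.33 by 4 h. Its repeats were almost equal within each time, and the change was -0.69 ± 0.11 (limma adjusted p = 8.71e-04). GH9C2 went from a mean of 8.94 to 8.49, by -0.44 ± 0.09 (limma adjusted p = 0.00752), and lost its call without array 3 of 4 h (adjusted p = 0.0518). Without array 3 of 0 h 3 members of the GH9 list fell and 1 rose.

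Of 12 listed pectin enzymes, 2 rose and 1 fell, 25% called against 2.8% of all genes. ATPMEPCRB, a pectin methylesterase (PME41), had 5.41, 4.56 and 4.66 at 0 h and 2.71, 3.09 and 3.24 at 4 h, a change of -1.86 ± 0.35 or 3.63-fold lower (limma adjusted p = 0.00532). The groups were more than 1 log2 unit apart, and the call held when any of the 6 arrays was left out. PMEPCRF, another pectin methylesterase, rose by 0.67 ± 0.15, from 5.83 to 6.50 (limma adjusted p = 0.0179). AT2G43870, of the pectin lyase-like genes, rose by 0.58 ± 0.12, from 5.58 to 6.16 (limma adjusted p = 0.0112). Its level had been higher at earlier times, 6.65 at 0.5 h and 6.84 at 1 h. The call of PMEPCRF ended without array 2 or 3 of 4 h (with adjusted p of 0.0541 and 0.0824) or array 1 of 0 h (adjusted p = 0.117), and that of AT2G43870 without array 1 of 0 h (adjusted p = 0.0617). AT4G38650, a glycosyl hydrolase of family 10 named after its values were seen, rose from 4.49, 4.82 and 4.39 to 5.79, 5.72 and 5.67, by 1.16 ± 0.13 (limma adjusted p = 4.67e-05).

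Of 9 listed class III peroxidases, secreted enzymes that make or use hydrogen peroxide at the wall, 2 rose and 1 fell. These were 33.3% of the list, against 2.8% of all genes called. AT2G38380 had 5.33, 5.75 and 5.77 at 0 h and 6.73, 6.86 and 7.25 at 4 h, a rise of 1.33 ± 0.19 (limma adjusted p = 4.63e-04). AT1G14550 moved the other way, from 7.16, 7.00 and 7.36 to 6.19, 5.99 and 6.14, a change of -1.07 ± 0.21 (limma adjusted p = 0.00673). For both genes the groups stood about 0.8 log2 units or more apart, and no single array was needed for either call. AT5G66390 rose by 0.68 ± 0.18 (limma adjusted p = 0.0462), with 0 h arrays between 8.18 and 9.09 and 4 h arrays between 9.29 and 9.34. That call ended without any 4 h array or without array 1 or 2 of 0 h (adjusted p from 0.113 to 0.255).

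Glutathione S-transferases join glutathione to reactive compounds. Of 15 listed, 2 fell and none rose, 13.3% called against 2.8% of all genes, with a median change of -0.03. Without array 3 of 0 h 2 others rose as well. ATGSTF13 had 8.00, 7.86 and 7.49 at 0 h and 6.36, 5.81 and 5.96 at 4 h, a change of -1.74 ± 0.17 or 3.34-fold lower (limma adjusted p = 7.02e-06). GSTU25 had 8.75, 8.95 and 8.81 at 0 h and 8.40, 8.19 and 8.41 at 4 h, a change of -0.50 ± 0.09 (limma adjusted p = 0.00532). Neither gene had overlapping groups, and both kept their calls when any of the 6 arrays was left out. MSRB6, a methionine sulfoxide reductase that repairs oxidised proteins, rose by 0.73 ± 0.16 (limma adjusted p = 0.015). Its call ended without array 1 or 2 of either time (adjusted p from 0.0657 to 0.0875). MT1C, a metallothionein that binds metals, rose from 8.39, 8.48 and 8.71 to 9.19, 9.59 and 9.49, by 0.90 ± 0.19 (limma adjusted p = 0.0114), and lost its call without array 2 or 3 of 4 h or array 1 of 0 h (adjusted p from 0.0538 to 0.0617).

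**Figure D3:**
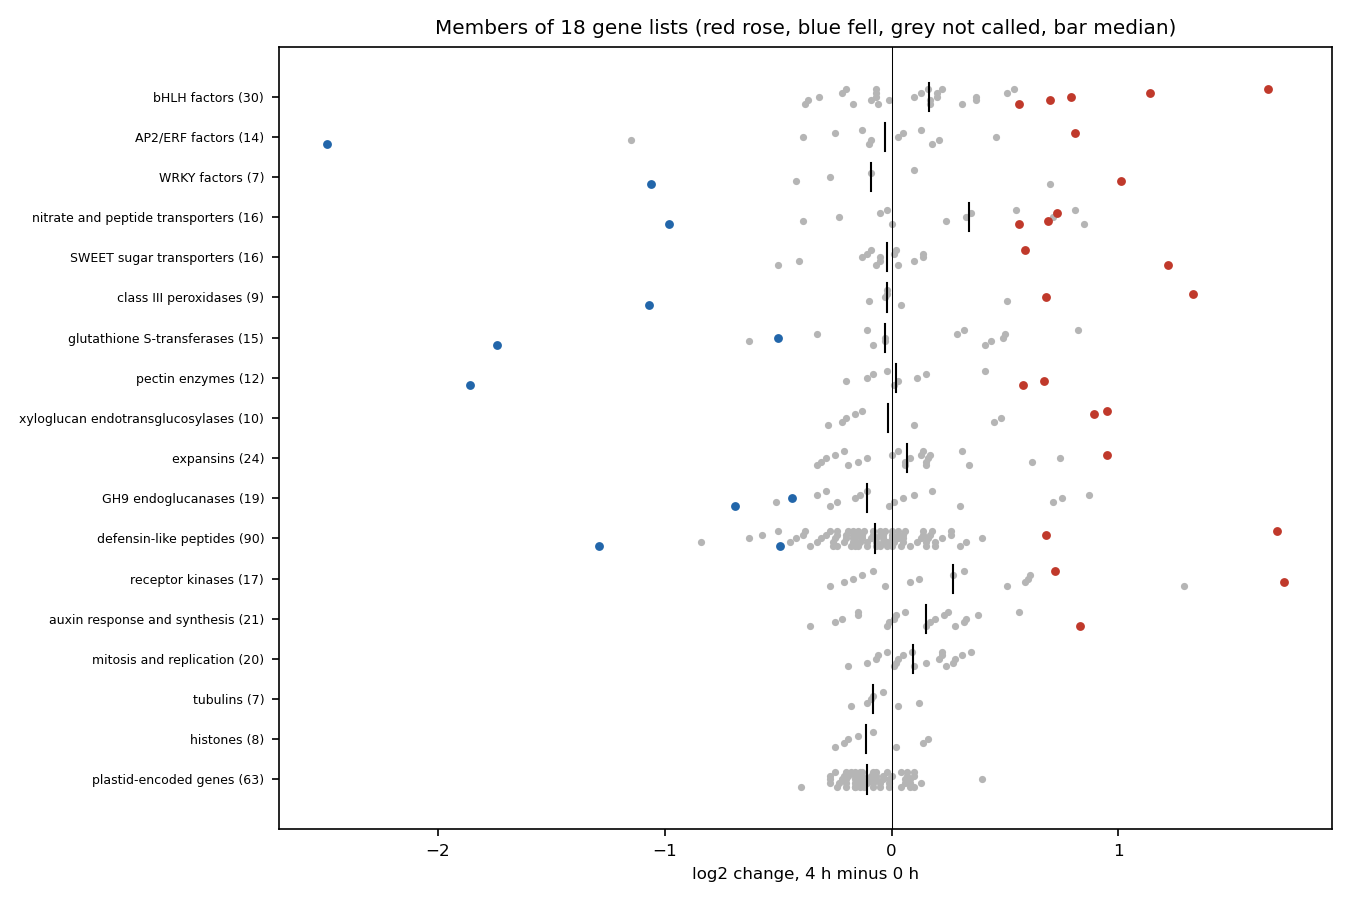
Log2 change at 4 h against 0 h (horizontal axis) of every measured member of 18 gene lists, with the number measured in brackets and the median of each list as a black bar. Red and blue points are called genes: bHLH factors show 5 red points and no blue, GH9 endoglucanases 2 blue and no red, and the lists of mitosis, tubulins, histones and plastid genes show grey points only.

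Transporters were called in both directions. Of 16 transporters of nitrate and peptides, 3 rose and 1 fell, 25% called against 2.8% of all genes. The list's median change was 0.34. GTR2, which carries glucosinolates, had 7.53, 7.61 and 7.25 at 0 h and 7.97, 8.16 and 8.33 at 4 h, a rise of 0.69 ± 0.13 (limma adjusted p = 0.00673). AT3G45700 rose by 0.73 ± 0.18 and AT1G33440 (NPF4.4) by 0.56 ± 0.14 (limma adjusted p = 0.0342 and 0.0278), and both calls ended without any 4 h array or without array 1 or 2 of 0 h (adjusted p from 0.0612 to 0.141). AT3G21670 (NPF6.4) had 3.53, 3.13 and 3.55 at 0 h and 2.48, 2.50 and 2.30 at 4 h, a change of -0.98 ± 0.20 (limma adjusted p = 0.00871), with the call lost without array 3 of 4 h (adjusted p = 0.0515) or array 1 of 0 h (adjusted p = 0.051). Without array 3 of 0 h 6 members of this list rose and 1 fell.

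Sugar transport was represented by SWEET16 and SWEET17, which move sugars across the vacuole membrane, and by SFP1, a sugar porter. SWEET16 had 4.65, 5.36 and 5.43 at 0 h and 6.38, 6.15 and 6.58 at 4 h, a rise of 1.22 ± 0.26 (limma adjusted p = 0.0116). SWEET17 rose by 0.59 ± 0.15, from a mean of 4.45 to 5.04 (limma adjusted p = 0.0411), and SFP1 by 0.75 ± 0.17, from 5.97 to 6.73 (limma adjusted p = 0.018). The 14 other SWEET genes were not called, so that 12.5% were called against 2.8% of all genes. The median change of the 16 was -0.02. The call of SWEET16 ended without array 3 of 4 h (adjusted p = 0.0654) or array 1 of 0 h (adjusted p = 0.085). Those of SWEET17 and SFP1 ended without array 2 or 3 of 4 h or array 1 or 2 of 0 h (adjusted p from 0.0874 to 0.189 and from 0.0532 to 0.108).

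Small secreted peptides went in both directions. Of 90 defensin-like genes, 2 rose and 2 fell, 4.44% called against 2.8% of all genes. Without array 3 of 0 h 1 rose and 5 fell. AT4G11393 had 3.90, 2.89 and 3.44 at 0 h and 4.93, 5.20 and 5.22 at 4 h, a rise of 1.70 ± 0.24 (limma adjusted p = 4.66e-04). AT4G22214 had 6.04, 5.59 and 5.70 at 0 h and 4.54, 4.38 and 4.55 at 4 h, a change of -1.29 ± 0.13 (limma adjusted p = 7.02e-06). In both genes the times stood more than 1 log2 unit apart, in opposite directions. LCR69 rose by 0.68 ± 0.18 and PDF2.5 changed by -0.49 ± 0.10 (limma adjusted p = 0.0436 and 0.0135). The call of LCR69 ended without any single one of the 6 arrays (adjusted p from 0.0517 to 0.174), and that of PDF2.5 without array 3 of 4 h or array 1 or 2 of 0 h (adjusted p from 0.0572 to 0.072). RALFL27, of the RALF peptides that signal alkalinisation and growth arrest, rose by 0.90 ± 0.19 (limma adjusted p = 0.0114), and CLE14, a peptide of the CLE family that shapes root growth, changed by -0.48 ± 0.12 (limma adjusted p = 0.0339). RALFL27 lost its call without array 1 or 2 of 0 h (with adjusted p of 0.0503 and 0.0555), and CLE14 without any 4 h array or without array 1 of 0 h (adjusted p from 0.0728 to 0.192). GRI, whose peptide takes part in cell death caused by reactive oxygen, fell from 2.81, 2.73 and 3.38 to 2.08, 2.14 and 2.02, by 0.90 (log2 change -0.90 ± 0.16, limma adjusted p = 0.00354).

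Among 17 listed receptor kinases 2 rose, 11.8% called against 2.8% of all genes, and the list's median change was 0.27. Receptor kinases under other names are not in this count. AT5G59680, of the leucine-rich repeat receptor kinases, had 4.13, 2.61 and 4.54 at 0 h but 4.98, 5.53 and 5.97 by 4 h. Its change of 1.73 ± 0.47 was the third largest rise, yet the 0 h arrays spread widely, the nearest arrays of the times lay close together and the limma adjusted p was 0.0488. PSY1R, the receptor of the growth peptide PSY1, rose by 0.72 ± 0.19 (limma adjusted p = 0.0398). AT5G59680 lost its call without any array except array 3 of 0 h (adjusted p from 0.0568 to 0.244) and after median centring (adjusted p = 0.0537), and PSY1R without array 1 or 3 of 4 h or array 1 or 2 of 0 h (adjusted p from 0.0962 to 0.188) and after median centring (adjusted p = 0.0516). Without array 3 of 0 h 6 receptor kinases rose, and after median centring none was called.

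Genes of calcium signalling, ubiquitin transfer and autophagy went both ways, with 2 falls and 4 rises described here. CML39 (AT1G76640), a calmodulin-like calcium sensor, had 6.53, 6.88 and 5.55 at 0 h and 4.07, 4.59 and 4.49 at 4 h, a change of -1.93 ± 0.36 or 3.82-fold lower (limma adjusted p = 0.00498). It was the only one called of 7 calmodulin-like genes (14.3%), whose median change was -0.41. PUB22, a ubiquitin ligase that dampens immune responses, changed by -0.54 ± 0.13 (limma adjusted p = 0.0324). Of the 28 ubiquitin-conjugating enzymes and ubiquitin proteases, UBC16 and UBC22 rose by 0.86 ± 0.16 and 0.33 ± 0.09 (limma adjusted p = 0.00461 and 0.0428). They were 7.14% of that list, against 2.8% of all genes called. The call of PUB22 ended without array 1 or 2 of 4 h or any 0 h array (adjusted p from 0.0649 to 0.167), and that of UBC22 without any 4 h array or without array 1 or 2 of 0 h (adjusted p from 0.0555 to 0.186). ATG8H and ATG8F, which coat the membranes of autophagy, each rose by 0.55 ± 0.15 (limma adjusted p = 0.0446 and 0.0484), and both calls ended without any 4 h array or without array 1 or 2 of 0 h (adjusted p from 0.0755 to 0.209). Both were also lost after median centring (adjusted p = 0.0535 and 0.064), and that of ATG8F with array weights (adjusted p = 0.0766).

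Further genes with large falls are known by locus alone. AT2G41730 had 5.00, 4.29 and 5.66 at 0 h and 3.37, 2.16 and 1.95 at 4 h, a change of -2.49 ± 0.43 (limma adjusted p = 0.00305). The arrays spread widely at both times and did not overlap, which was a condition of its place among the largest falls. AT1G51920, AT1G33600 and AT1G13480 changed by -2.01, -1.78 and -1.71 (limma adjusted p from 0.00761 to 0.0138). AT1G51920 lost its call without array 1 or 3 of 4 h or array 1 of 0 h (adjusted p from 0.0555 to 0.064), and AT1G33600 and AT1G13480 without array 1 of 0 h (adjusted p = 0.0617 and 0.06). AT1G59865, AT5G04120 and AT2G34930 changed by -1.61, -1.47 and -1.32 and kept their calls when any of the 6 arrays was left out (limma adjusted p from 3.35e-04 to 0.00366 with all arrays). AT2G22880 and AT1G36622 changed by -1.58 ± 0.36 and -1.46 ± 0.39 (limma adjusted p = 0.0181 and 0.0462). AT2G22880 lost its call without array 1 or 3 of 4 h or array 1 or 2 of 0 h (adjusted p from 0.0569 to 0.087), and AT1G36622 when any array was left out other than the second of 0 h, with adjusted p then from 0.052 to 0.243.

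Genes of primary metabolism with a symbol changed in both directions. ASPGB1, an asparaginase, had 5.68, 5.73 and 5.76 at 0 h and 5.09, 4.89 and 5.20 at 4 h, a change of -0.67 ± 0.12 (limma adjusted p = 0.00354). PPDK, which converts pyruvate to phosphoenolpyruvate, changed by -0.89 ± 0.19 (limma adjusted p = 0.0119), and APL3, a subunit of the first enzyme of starch synthesis, by -0.61 ± 0.16 (limma adjusted p = 0.0427). MGL, which breaks down methionine, changed by -0.48 ± 0.12 (limma adjusted p = 0.0283). AAE18, an acyl-activating enzyme of the peroxisome, rose from 6.55, 6.53 and 7.18 to 7.74, 7.59 and 7.71, by 0.93 ± 0.15 (limma adjusted p = 0.0016). Calls ended for PPDK without array 3 of 4 h or array 1 or 2 of 0 h (adjusted p from 0.0538 to 0.0808), and for APL3 and MGL without any 4 h array or without array 1 or 2 of 0 h (adjusted p from 0.0663 to 0.144 and from 0.0518 to 0.11). UGT85A2 and UGT78D2, glycosyltransferases of which the latter acts on flavonoids, rose by 0.46 ± 0.10 and 0.67 ± 0.16 (limma adjusted p = 0.0123 and 0.0219). Of the 55 measured members of the family 3.64% were called, against 2.8% of all genes, and 4 rose without array 3 of 0 h. UGT85A2 lost its call without array 3 of 4 h or array 1 of 0 h (adjusted p = 0.0518 and 0.0617), and UGT78D2 without array 1 or 3 of 4 h or array 1 or 2 of 0 h (adjusted p from 0.0574 to 0.108).

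Proteases and genes of growth form made up the last named groups. Of 32 serine carboxypeptidase-like genes, SCPL32 rose by 1.20 ± 0.27 and SCPL45 by 0.67 ± 0.12 (limma adjusted p = 0.0159 and 0.00407). They were 6.25% of the list, against 2.8% of all genes called. SCPL45 went from 7.91 to 8.58, and had stood at 8.69 at 0.5 h. TRM25, of a family that binds microtubule-organising proteins, had 6.19, 5.77 and 5.70 at 0 h and 5.09, 4.95 and 5.14 at 4 h, a change of -0.82 ± 0.13 (limma adjusted p = 8.77e-04). IQD26, of a family of calmodulin-binding scaffold proteins at microtubules, changed by -0.66 ± 0.11 (limma adjusted p = 0.00184). TET10, a tetraspanin, rose by 0.68 ± 0.11, from 4.40, 4.46 and 4.33 to 5.09, 5.20 and 4.94 (limma adjusted p = 0.00177). SCPL32 lost its call without array 1 or 3 of 4 h or array 1 or 2 of 0 h (adjusted p from 0.053 to 0.0781).

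Of 50 gene lists with a measured member, 34 had a called gene. The lists held up to 90 genes, and how many would hold a call by length alone was not computed. Together the lists covered 883 genes, of which 58 were called, against 464 of all 16554 genes. Over the fits that left out 1 of the 6 arrays, the called members ran from 4 to 6 for bHLH factors, from 1 to 3 for AP2/ERF and WRKY factors, from 1 to 7 for nitrate and peptide transporters, from 0 to 6 for receptor kinases and from 1 to 4 for GH9 endoglucanases and for ubiquitin-conjugating enzymes and proteases. None of 20 genes of mitosis and replication was called, with changes from -0.19 to 0.35 and a median of 0.10. AUR1, a kinase of cell division, was the highest of these by change, at 0.35 ± 0.11 (limma adjusted p = 0.0821), and AUR2 differed by 0.31 ± 0.19 (limma adjusted p = 0.459). No call was made among 7 tubulins (median change -0.08), 8 histones (-0.11), 14 chaperones (0.02), 26 cytochromes P450 (0.01), 13 genes of cold and drought response (0.01) or 16 genes of metal uptake (0.17). Among 63 plastid-encoded genes none was called, with a median of -0.11. These medians are read against that of all genes, -0.02, or -0.07 after median centring. With 2.8% of all genes called, a short list can hold no call without differing from them. Arrays of the times did not overlap for 7 genes of metal uptake, all higher. The same held for 5 higher and 1 lower mitosis genes, and for 4 higher and 14 lower plastid-encoded genes. Over all genes 9.73% were higher and 9.36% lower without overlap. Without array 3 of 0 h, 1 mitosis gene, 1 cytochrome P450, 2 genes of cold and drought response and 2 of metal uptake rose, and 2 plastid-encoded genes fell.

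Marker genes bear on which cells the samples held, and in bulk tissue fewer cells of a type and less RNA per cell cannot be told apart. Both root hair markers measured were higher at 4 h in every array. EXPA7 had 7.73, 7.88 and 8.51 at 0 h and 8.74, 8.65 and 8.57 at 4 h, and EXPA18 had 6.29, 6.37 and 7.00 against 7.51, 7.23 and 7.15. Their differences of 0.62 ± 0.21 and 0.74 ± 0.23 were not called (limma adjusted p = 0.116 and 0.0921) but were called without array 3 of 0 h, over all alternatives with adjusted p from 0.00199 to 0.399 and from 2.16e-04 to 0.32. Their summed level ran from 8.18 to 8.94 (log2) at 0 h and from 9.03 to 9.25 at 4 h, with the highest 0 h value in array 3. At 1 h EXPA7 and EXPA18 differed from 0 h by 0.11 and 0.22 and at 3 h by 0.77 and 0.96, where EXPA8 differed by 0.91 and 0.95. Other genes tied to root hairs, which are not on the marker list and were picked after their values were seen, went both ways. WRKY42 rose, as did SCN1, a regulator of root hair initiation, by 0.41 ± 0.09 (limma adjusted p = 0.0115). The call of SCN1 was lost without array 1 or 2 of either time (adjusted p from 0.052 to 0.0645). TRY, described above, fell. The part of root hair cells in these results was not tested.

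Other markers moved less. The phloem markers OPS and CLE45 differed by 0.49 ± 0.21 and 0.00 ± 0.20 (limma adjusted p = 0.257 and 0.994), and BBM, a marker of the stem cell niche, by -0.13 ± 0.19 (limma adjusted p = 0.79). BBM was measured at 5.60, 5.07 and 4.91 at 0 h. The pericycle markers LBD29 and LBD16 differed by -0.01 and 0.33 and were not called. Of 5 shoot markers, RCA, the activase of the carbon-fixing enzyme, rose by 0.56 ± 0.14 (limma adjusted p = 0.0303), from 4.55 to 5.11, a call lost without array 1 or 2 of either time (adjusted p from 0.0524 to 0.136) and after median centring (adjusted p = 0.0594). The 5 shoot genes together ran from 5.96 to 6.11 (summed, log2) at 0 h and from 6.35 to 6.43 at 4 h. Lists for xylem, root cap and endodermis had no measured member, so the labelled tissue could not be checked against them.

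The neighbouring times ask whether 4 h differed from 3 h and 5 h. AT1G54950 was the only gene called between 4 h and 3 h (0.00604% of genes). It had 2.94, 3.72 and 3.50 at 3 h but 2.45, 1.30 and 1.87 by 4 h. The 4 h arrays lay below all 3 h arrays, and 1 of them was within the range of the 0 h arrays, whose mean was 1.26 ± 0.23 (SD, n = 3). The change from 3 h to 4 h was -1.51 ± 0.24 (limma adjusted p = 0.0468), and the level at 5 h was 1.27 ± 0.12 (SD, n = 3). This call ended when array 2 or 3 of either time was left out (adjusted p from 0.107 to 0.342) and with array weights (adjusted p = 0.0513). No gene was called between 5 h and 4 h by limma (0%). At an unadjusted limma p under 0.05 there were 716 genes (4.33%) for 4 h against 3 h and 688 (4.16%) for 5 h against 4 h. Both shares lay below the share of 0.05 that this threshold passes when no gene differs.

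**Figure D4:**
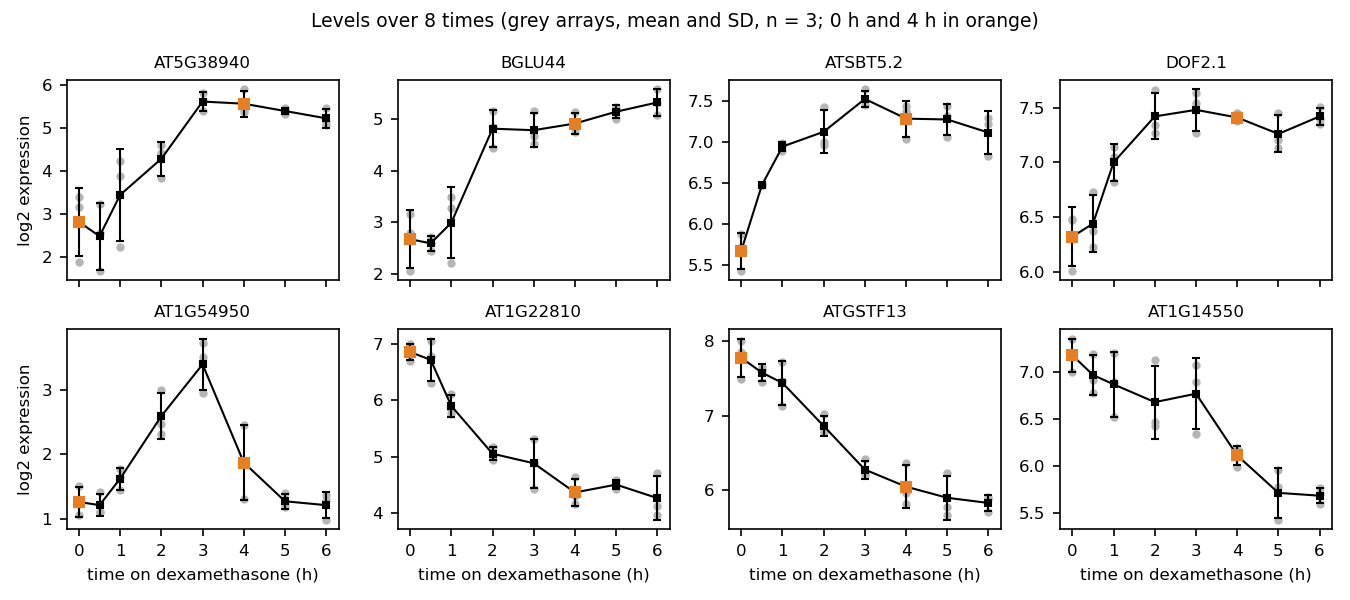
Log2 expression (vertical axes, scaled per gene) of 8 genes over 8 times on dexamethasone (horizontal axes, h), with grey points for arrays, black squares for means and bars for the SD over 3 arrays, and the 0 h and 4 h means in orange. AT5G38940 reached its 4 h level by 3 h, AT1G54950 peaked at 3 h with a mean of 3.39, and AT1G14550 was at 6.77 at 3 h and 6.11 at 4 h.

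The levels along the series show different routes to the 4 h values. AT5G38940 had means of 2.48 at 0.5 h and 3.44 at 1 h, then 4.28 and 5.61 by 2 h and 3 h, and 5.56 at 4 h. BGLU44 stayed at 2.59 at 0.5 h and 2.99 at 1 h and then stood between 4.79 and 5.33 from 2 h on. ATSBT5.2 was already at 6.47 at 0.5 h and 6.94 at 1 h. MYBC1 was higher at 1 h (5.99) than at 4 h (5.45), as were SCPL45 and AT2G43870. AT4G38650 likewise stood 1.03 lower at 4 h than at 0.5 h (log2 change -1.03, limma adjusted p = 1.95e-04). AT1G22810 descended from 6.86 at 0 h through 5.90 at 1 h and 5.05 at 2 h to 4.36 at 4 h, and ATGSTF13 from 7.78 through 7.44 and 6.86 to 6.04. These descriptions share the 4 h and 0 h arrays with the comparison above.

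The number of calls varied with the arrays included in the fit. A fit of the 6 arrays alone called 38 rises and 31 falls, 0.417% of genes, and 68 of these 69 were among the 464. At an unadjusted limma p under 0.05 it held 2087 genes (12.6%), against 2703 (16.3%) in the fit of all arrays. The smaller fit has fewer degrees of freedom as well as its own spread, and their effects cannot be told apart here. In the fit of the 6 arrays AT1G22810 (adjusted p = 0.00308), AT3G18450 and ATSBT5.2 (both 0.027), ATGSTF13 (0.0287), BGLU44 (0.0315) and DOF2.1 (0.0392) kept their calls, while CML39 (0.0556), AT2G41730 (0.0613) and GH3.17 (0.0583) did not. In none of the fits that left out 1 of the 6 arrays did any of the 118 called genes chosen for naming turn direction. Where arrays of the times do not overlap, leaving out 1 array cannot turn the direction, so this count is no test of it. Over all alternatives the adjusted p ran from 2.56e-08 to 0.00308 for AT1G22810, from 1.42e-05 to 0.0392 for DOF2.1 and from 5.70e-05 to 0.0556 for CML39.

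**Figure D5:**
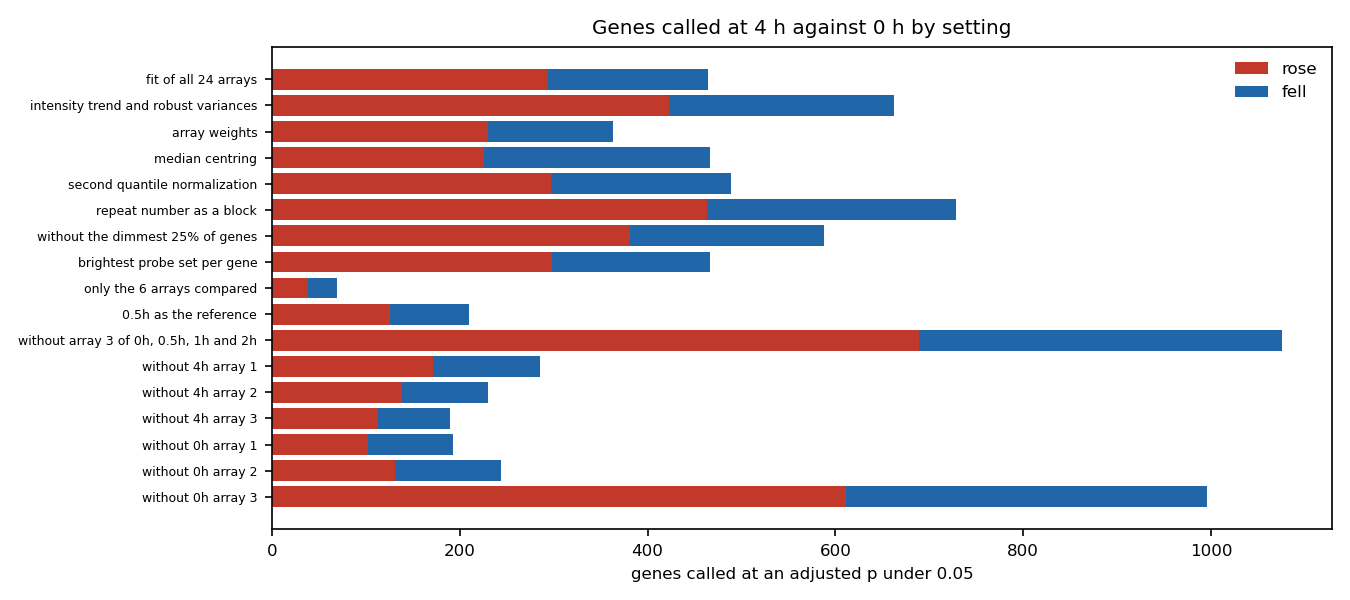
Number of genes called at 4 h against 0 h (horizontal axis, adjusted p under 0.05, red for rises and blue for falls) under each setting on the vertical axis. The count ranges from 69 in the 6 arrays compared to 1075 without array 3 of the 4 earliest times, with 464 in the fit of all arrays.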

How the data were processed

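The deposited values were log2 expression values that the authors made by RMA, as named in the submitters' processing notes. This method corrects background, equalises quantiles over arrays and summarises each probe set. Because RMA makes arrays alike in distribution, a change of most genes the same way could go unseen. Neither the version of RMA nor a genome build for the array is stated in the sources used here. The labels' protocols name total RNA of root meristems and the Affymetrix whole-transcript sense target assay.

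Of 38408 probe sets, the platform annotation paired 16746 with 1 gene and 758 with more than 1, while 20904 had no name. The log2 values of the single-gene probe sets were averaged by gene, giving 16554 genes, 163 of them from several probe sets. Symbols came from the TAIR10.1 RefSeq table, matched by 16601 probe sets. Family names of loci without a symbol came from the descriptions of the series or from synonyms.

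Groups were the 8 times in the sample titles. A linear model of 8 means was fitted to 24 arrays using lmFit and eBayes of limma 3.58.1 (R 4.3.3), and 4 h was compared with 0 h, 3 h and 5 h. Calls used a Benjamini-Hochberg adjusted p under 0.05. In 5 draws of simulated data for 4 h against 0 h, 200 of 16554 genes were given a change. Recovery was 32.9% for changes of 0.5 in log2, 89.3% for changes of 1 and 100% for changes of 2. False calls made up 6.46%. These rates belong to the draws and cannot be carried over to the real calls. In the arrays the spread was wider at 0 h than at 4 h, and early repeats shared deviations by number.

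The members and gene lists were chosen with earlier results of these data known. The rule for named genes took LHW and DOF2.1, then the 20 genes that rose most and the 20 that fell most among called genes with no overlap between arrays, up to 4 called members and up to 2 members not called per list, and genes called between neighbouring times. The text gives part of these and adds SACL2, SACL1, AT4G38650 and called genes with a symbol. Of 53 lists, 45 were functional and 8 of cell type markers, and 50 had a measured member. Members were matched by locus, symbol or synonym, so family members under other names were left out. Alternatives were median centring, quantile normalization once more, an intensity trend with robust variances, array weights, a block for the repeat number, a filter of the dimmest 25% of genes, each gene's brightest probe set, a minimum log2 change of 1, the 6 arrays alone, 0.5 h as the reference, fits without array 3 of the early times, all probe sets, and leaving out each array.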

Additional observations from a re-analysis of the deposited data

Results flagged for a closer look

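Probe sets without a gene name carried signal outside the comparisons by gene. When all 38408 probe sets were fitted by ID with limma, 724 were called at 4 h against 0 h (1.89%), and 363 of them were among the 20904 unnamed probe sets (1.74%). Of the 363 unnamed probe sets, 240 were higher and 123 lower at 4 h, with a largest rise of 2.53 and a largest fall of 2.24 (log2 change -2.24). They could not be assigned to genes here.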

How the results depend on the processing

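The counts of calls at 4 h against 0 h moved most. The 464 calls (294 higher and 170 lower) became 728 (463 and 265) with the repeat number as a block, 69 (38 and 31) in the 6 arrays alone, 210 (126 and 84) against 0.5 h, 1075 (689 and 386) without array 3 of 0, 0.5, 1 and 2 h, 78 (43 and 35) with a log2 change of at least 1 and 724 (466 and 258) over all probe sets. Leaving out 1 array gave 190 to 996 calls, 102 to 611 higher and 77 to 385 lower. The other settings stayed within 1.5 times: 662 calls with another variance model, 363 with array weights, 466 after median centring, 489 after a second quantile normalization, 588 without the dimmest 25% of genes and 467 with the brightest probe set. The share of rises among calls was 63.4% and fell to 48.5% after median centring. For 4 h against 3 h the 1 call became 0 with array weights and in the 6 arrays alone, and 0 to 2 when 1 array was left out. For 5 h against 4 h the 0 calls became 0 to 2.

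Deviations of same-numbered repeats from their time means had correlations of -0.0263, 0.00357 and -0.00521 between 0 h and 4 h. Over all pairs of times they were above 0 in 71 of 84 cases (median 0.0339) and above 0.1 in 14, against 52 and 0 of 168 cases with different numbers, and among 0, 0.5, 1 and 2 h they ran from 0.0237 to 0.223. A deviation shared by number is thus in the early arrays, but the bar of 0.1 in every pair was not met and the labels name no shared batch, so the numbers were not taken as pairs. All 464 calls were kept under the block. Against 0.5 h the sign turned for AT4G38650 (-1.03), AT1G72210 (-0.01), MYBC1 (-0.38), SCPL45 (-0.10), AT2G43870 (-0.49), SACL2 (-0.22), SACL1 (-0.12), CLE45 (-0.09), LHW (0.13), BBM (0.09) and TRM25 (0.02), a comparison with another time. CLE45 also turned after median centring (-0.05), and leaving out 1 array gave it -0.16 to 0.10, with -0.15 when array 2 of 0 h was dropped, LHW turned without array 3 of 0 h (0.00) and of the early times (0.00), and BBM ran from -0.27 to 0.07, the last when array 1 of 0 h was dropped. Of 118 called genes chosen for naming, 40 kept the call in the 6 arrays alone and 51 when any of the 6 arrays was left out. Of 800 list counts over the alternatives, 567 stayed within 1.5 times, as did 688 of 800 list medians within the spread of the repeats. The causes were not tested.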

Other observations

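Genes that lie next to each other on a chromosome were both called in 10 of 8273 pairs with both members measured. Calls covered 2.8% of single genes, and how many such pairs that share alone would give was not computed. In 4 pairs both rose and in 4 both fell. The pairs that rose were AT5G51780 and AT5G51790 (1.66 and 1.14), AT1G51830 and AT1G51840 (1.00 and 0.86), AT1G72200 and AT1G72210 (0.64 and 0.79), and AT1G28100 and SCPL45 (0.54 and 0.67). Those that fell were AT1G33590 and AT1G33600 (-0.56 and -1.78), AT4G01240 and WRKY22 (-0.44 and -1.06), AT4G25250 and AT4G25260 (-0.61 and -0.63), and AT5G62330 and AT5G62340 (-1.06 and -0.38). In the other 2 pairs the members moved in opposite directions. AT4G22212 rose by 0.87 beside AT4G22214, which changed by -1.29, and AT5G51510 rose by 0.32 beside AT5G51520, which changed by -0.47. Probe sets of neighbouring genes of 1 family may share sequence, which was not tested, since no sequence was used here. These pairs were picked after their values were seen.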
